A study of Mus musculus with 4 samples.

Results

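Wild-type primary mouse hepatocytes given palmitic and oleic acid were compared with untreated wild-type hepatocytes, gene by gene. A gene was included when it had an FPKM (fragments per kilobase of transcript, scaled to library depth) of at least 1 in either of these 2 libraries, which 11287 of 45777 genes in the table did (24.7%). Hepatocytes are the main cells of the liver. The series holds 4 groups with 1 RNA library each: wild-type (WT) cells with the fatty acids, WT cells without treatment, and Dusp6-knockout (KO) cells, which lack a phosphatase that switches off the kinase ERK, with and without the same fatty acids. After 3 h in culture, the treated cells received palmitic acid at 0.5 mM together with oleic acid at 1 mM for 24 h. Cells of all 4 groups were grown in DMEM with fetal bovine serum. Strain, sex, age and number of mice, and whether untreated cells received a carrier for the fatty acids, are not stated by the labels. The mixture of the acids was a single treatment, so the part of each acid cannot be told apart.

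Palmitic acid is a saturated and oleic acid a monounsaturated fatty acid, and together they are a standard way of loading hepatocytes with fat in culture. Inside the cell they are bound by fatty acid binding proteins, activated to acyl-CoA, and then oxidised or stored as triglyceride in lipid droplets coated by perilipins. Fatty acids are ligands of the nuclear receptor PPARα, which drives genes of fatty acid oxidation, ketone body synthesis and omega-hydroxylation. Unsaturated fatty acids are known to lower the activity of SREBP1 and with it lipid synthesis genes, while SREBP2 drives sterol synthesis genes, and saturated ones are known to provoke inflammatory and stress signalling.

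Differences are given as log2(FPKM + 1) with fatty acids minus without, relative to the median gene. The median gene stood at -0.26 on this log2 scale in the WT pair before it was set to 0, taken over 5903 genes that reached an FPKM of 5 in all 4 libraries. A gene was called higher or lower at 2-fold, a log2 difference of at least 1. With 1 library per group there is no replicate, no error between cultures and no p-value for the WT pair. The libraries held 89069900 reads in WT with fatty acids and 87272191 in WT untreated, against 97364292 in KO with fatty acids and 85423156 in KO untreated. A fold in read counts, also relative to the median gene, is given with an exact binomial 95% interval that covers counting error only.

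With fatty acids, 425 genes were higher (3.77% of genes compared) and 78 were lower (0.691%). The higher genes included chemokines, immediate early genes, macrophage marker genes and mitochondrially encoded genes, and the lower genes included those of sterol synthesis, serine synthesis and histone H4. In read counts, 421 of the 425 and 75 of the 78 were also past 2-fold, and 0 of the 503 had the opposite sign. Both measures come from the same libraries, so this is no separate check of the calls. Of the higher genes, 35 were past a log2 difference of 2 and 4 past 3, while 0 genes were lower by 2 or more. Just inside the threshold, 99 genes lay at 1 to 1.1 higher and 32 lower. Just outside it, 138 lay at 0.9 to 1 higher and 37 lower. The middle of the distribution was narrow, from -0.23 at the 25th to 0.32 at the 75th percentile.

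The balance of higher and lower calls depends on the scale. Of all called genes, 84.5% were higher relative to the median gene, against 63.0% in library-scaled read counts (CPM) with TMM, 44.3% on the deposited FPKM and 24.5% on the deposited TPM. The sum of FPKM was 731758 in WT with fatty acids and 668209 in WT untreated. Rn7s1 and Rn7s2, copies of the RNA of the signal recognition particle, held 8.20% of reads in WT with fatty acids and 6.20% in WT untreated, and albumin 0.833% and 0.573%.

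**Figure D1:**
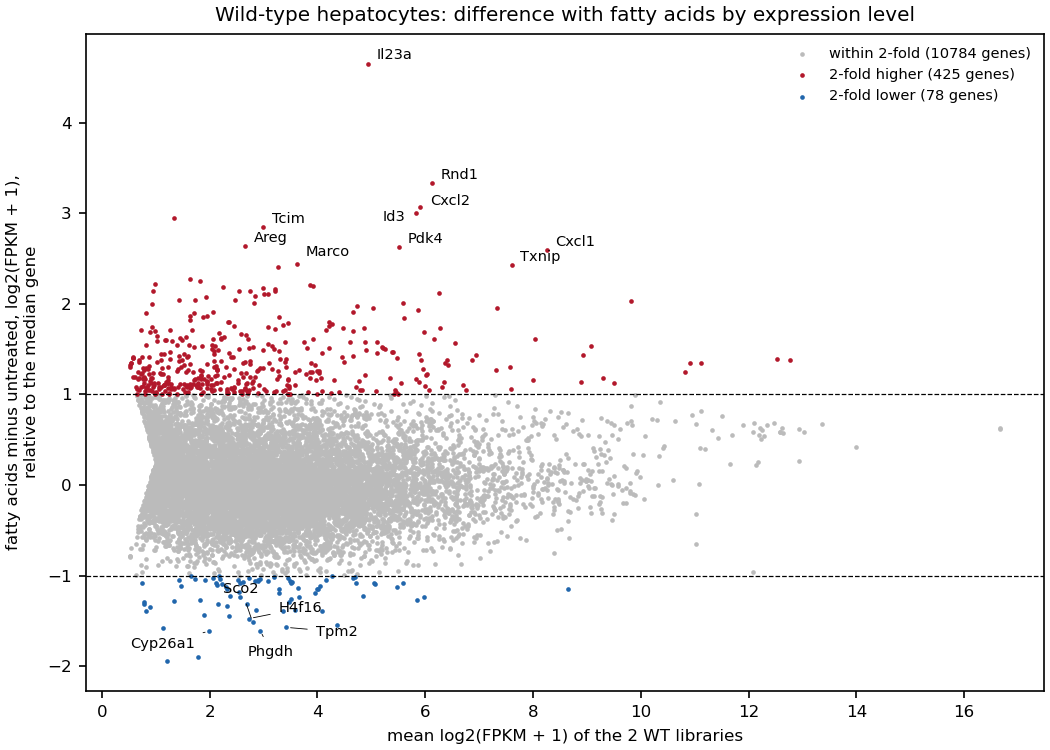
Difference with fatty acids in WT hepatocytes (y axis, log2(FPKM + 1) relative to the median gene) against the mean level of the gene in the 2 WT libraries (x axis). Each point is 1 of 11287 genes, and the dashed lines mark 2-fold; the 425 higher genes reach 4.65 for Il23a, while the 78 lower genes end above -2.

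The gene with the largest difference was Il23a, the p19 subunit of the cytokine interleukin 23 (chromosome 10, 128296140 to 128298084, GRCm38.p6, which is mm10). It had an FPKM of 140.1 in WT with fatty acids and 5.73 in WT untreated, against 0.192 in KO with fatty acids and 0.367 in KO untreated. The log2 difference in WT was 4.65, and in read counts the gene was 29.7-fold higher (95% interval 27.7 to 32.0). It was thus highest in WT with fatty acids and close to 0 in both KO libraries. Next came Rnd1, an unusual small GTPase that loosens the actin cytoskeleton (chromosome 15, 98669205 to 98677461), at 202 FPKM in WT with fatty acids and 23.3 in WT untreated, against 6.15 and 5.68 in KO with and without fatty acids. Its log2 difference was 3.33, or 10.6-fold in reads (10.3 to 10.9). Id3, an inhibitor of helix-loop-helix transcription factors, had 145 FPKM in WT with fatty acids and 20.9 in WT untreated, a difference of 3.00, with 42.9 and 34.9 in KO with and without fatty acids. Other genes among the 20 highest were Tcim, a small transcriptional regulator (18.5 and 2.26 FPKM in WT with and without fatty acids, 2.85), the aldo-keto reductase Akr1b7 (27.8 and 6.44, 2.21), the G protein regulator Rgs16 (10.2 and 2.04, 2.14), placental growth factor Pgf (12.6 and 2.81, 2.09), the vesicle GTPase Rab30, the zinc finger gene Zbtb46 and the short noncoding RNA Bc1. For these, too, both KO libraries lay below WT with fatty acids.

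Neutrophil chemokines were the next group. Cxcl2 (chromosome 5, 90903899 to 90905938) had 157 FPKM in WT with fatty acids and 21.7 in WT untreated, a log2 difference of 3.07 or 8.84-fold in reads (8.47 to 9.24). Its neighbour Cxcl1 (chromosome 5, 90891245 to 90893121) had 684 and 135 FPKM in the same order, a difference of 2.60 or 6.18-fold in reads (6.06 to 6.29). In KO, Cxcl2 was at 0.561 FPKM with fatty acids and 0.690 without, and Cxcl1 at 13.6 with and 8.64 without. Both chemokines bind the neutrophil receptor CXCR2, and both were lower in either KO library than in untreated WT.

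The stretches upstream of Cxcl2 and Cxcl1 are shown because these chemokines are textbook targets of NF-κB, the transcription factor of inflammatory signalling. That of Phgdh is shown because it was among the lowest genes and held no match, so it is no test of the motif. Id3, among the 20 highest genes, and Cyp26a1, among the 20 lowest, held no match either and are not printed. Each run holds the bases from 250 to 31 before the RefSeq start on GRCm38.p6, read 5′ to 3′ on the strand of the gene. Capitals mark matches to the NF-κB motif GGGNNNTTC on either strand.
Cxcl2 (chr5:90903649-90903868, plus strand): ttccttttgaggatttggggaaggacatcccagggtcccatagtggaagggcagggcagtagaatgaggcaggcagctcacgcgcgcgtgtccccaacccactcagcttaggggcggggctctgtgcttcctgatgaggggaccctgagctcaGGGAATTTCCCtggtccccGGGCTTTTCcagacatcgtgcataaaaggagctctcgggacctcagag
Cxcl1 (chr5:90890995-90891214, plus strand): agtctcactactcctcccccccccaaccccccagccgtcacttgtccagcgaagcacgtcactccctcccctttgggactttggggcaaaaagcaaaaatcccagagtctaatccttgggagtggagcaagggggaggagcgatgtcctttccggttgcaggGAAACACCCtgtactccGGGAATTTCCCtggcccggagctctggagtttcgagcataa
Phgdh (chr3:98340000-98340219, minus strand): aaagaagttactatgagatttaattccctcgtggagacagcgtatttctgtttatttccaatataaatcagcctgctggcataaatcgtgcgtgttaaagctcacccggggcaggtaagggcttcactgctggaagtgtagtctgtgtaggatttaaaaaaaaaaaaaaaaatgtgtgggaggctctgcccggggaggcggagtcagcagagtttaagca

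In Cxcl2, matches began 97, 95 and 78 bases before the start, and in Cxcl1 88, 71 and 69 bases before it, with the closely spaced pairs overlapping on opposite strands. Cxcl1 was added after its values were seen. The motif occurred in 250 upstream bases of 12 of the 23 chemokine and NF-κB genes that had an entry (52.2%), against 12.96% of all 8369 genes compared with an entry. Of the 425 higher genes 224 had an entry, and 32 of these held a match (14.3%). Of the 78 lower genes 57 had an entry, and 5 of these held a match (8.77%). The list was chosen by role, as NF-κB response genes among others, so its share does not bear on the fatty acids. It was also drawn up with earlier results of these data known. The share of the higher genes was close to that of all genes. The AP-1 motif TGANTCA occurred in 19 of the 224 higher genes with an entry (8.48%), 4 of the 57 lower ones (7.02%) and 4.46% of all. A match of letters is a description and not a site of binding.

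Of 34 chemokine and NF-κB response genes compared, 16 were higher and 0 lower. Their median log2 difference was 0.97, against 0.02 over all genes compared. On the deposited TPM scale, 11 were 2-fold higher. This list and the other gene lists below were chosen with earlier results of these data known. Their counts are therefore descriptions and no test. The monocyte chemokine Ccl7 had 19.2 FPKM in WT with fatty acids and 3.58 in WT untreated (difference 2.40), Ccl2 had 56.0 and 23.0 (1.51), and Cxcl10, a T cell chemokine, 51.2 and 21.8 (1.46). Genes that take part in the control of NF-κB were higher as well. Tnfaip3, the deubiquitinase A20, had 16.1 FPKM with fatty acids and 4.64 untreated in WT (1.86), the inhibitor gene Nfkbia 56.2 and 22.8 (1.53), and its nuclear relative Nfkbiz 7.70 and 2.001 (1.80). The subunit Nfkb1 was at 35.5 and 20.1 (1.05), while Nfkb2 (21.4 and 22.5, 0.20) and Relb (11.6 and 9.56, 0.52) were within 2-fold. The adhesion molecule Icam1 was at 43.5 and 24.9 (1.04), and Hcar2, the niacin and ketone body receptor, at 22.2 and 10.6 (1.26). Classical cytokines were low throughout. Tnf had 2.19 FPKM with fatty acids and 1.06 untreated in WT (0.89), Il1b 2.48 and 2.03 (0.46), and Il6 stayed under the inclusion limit at 0.197 and 0.232.

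**Figure D2:**
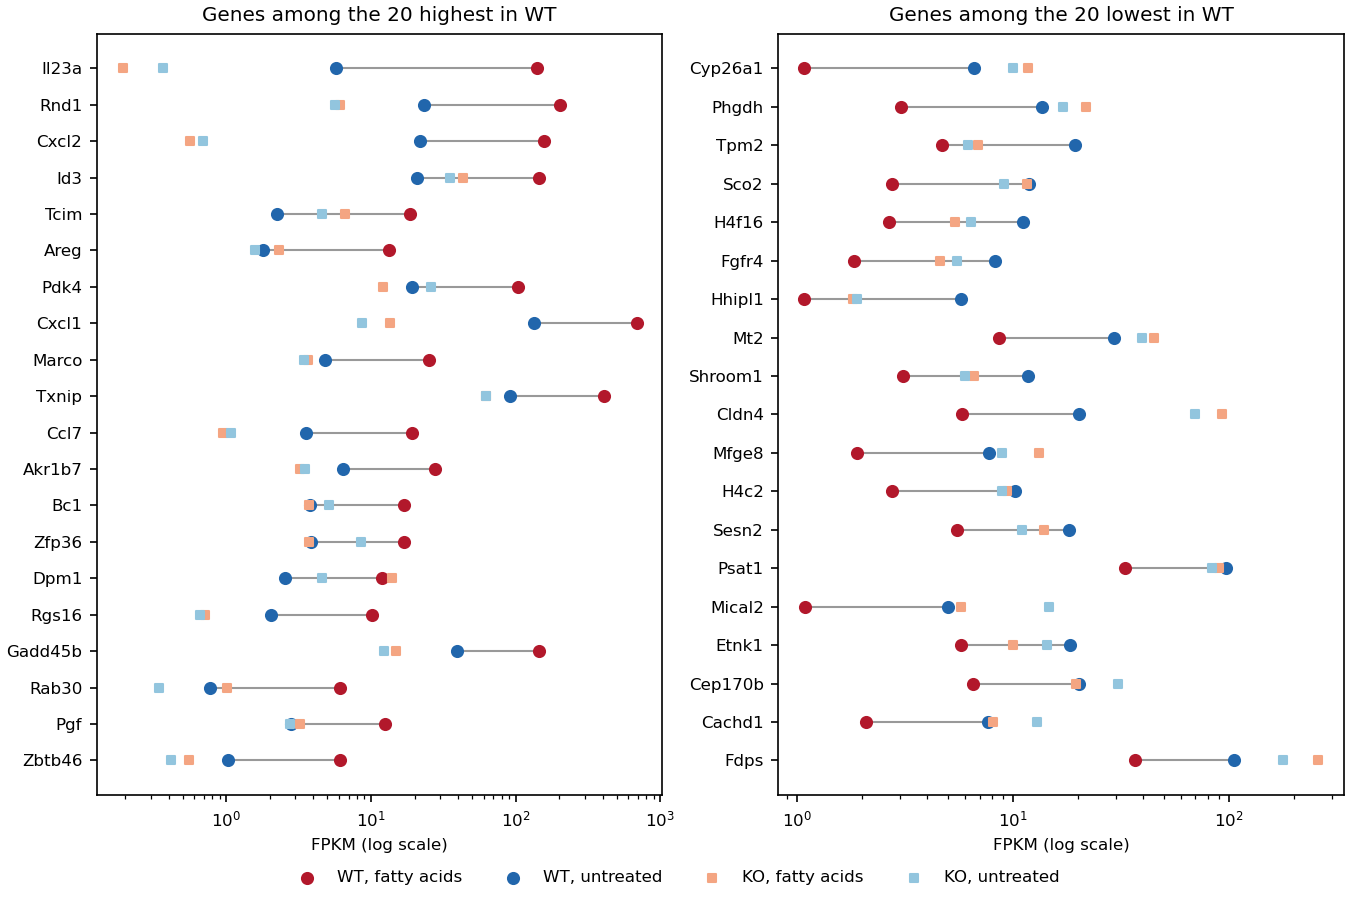
FPKM (x axis, log scale) of genes among the 20 highest and 20 lowest of the WT pair in all 4 libraries. Large circles are WT, small squares KO, and a grey line joins the 2 WT values; for Il23a, Cxcl2 and Cxcl1 both KO libraries lie left of untreated WT, and for Fdps and Cldn4 both lie right of it.

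Immediate early genes are switched on within minutes by growth factor and stress signals, many through the kinase ERK. This list holds Rnd1 and Areg, which are among the 20 highest genes, and was chosen with earlier results of these data known. Of 37 immediate early and ERK response genes compared, 13 were higher and 0 lower, with a median of 0.55. On the deposited TPM scale 10 were higher and 2 lower, with a median of 0.16. Beside Rnd1, Areg, a ligand of the EGF receptor, had 13.4 FPKM in WT with fatty acids and 1.78 in WT untreated (2.63), and Zfp36, the mRNA decay factor tristetraprolin, had 16.9 and 3.85 (2.15). Among transcription factors, Klf10 was at 83.4 and 27.2 (1.85), Junb at 148 and 59.0 (1.57), Atf3 at 62.2 and 26.4 (1.47), Fos at 3.47 and 1.01 (1.41) and Egr1 at 7.56 and 3.73 (1.12). Egr1 ran the other way in KO, at 2.26 FPKM with fatty acids and 9.27 without (-1.82). The list's KO median was -0.12, with 6 members 2-fold lower in KO and 0 higher, where 4.92% of all genes compared were lower. Dusp6, the gene deleted in KO and itself a brake on ERK and an ERK-induced gene, had 77.1 FPKM in WT with fatty acids and 40.7 in WT untreated. Its difference was 1.17, or 2.31-fold in reads (2.25 to 2.36), with 1.11 FPKM in KO with fatty acids and 1.42 in KO untreated. The low Dusp6 in both KO libraries matches their labels.

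Genes of stress and growth arrest were split. Gadd45b, a stress-induced regulator of MAP kinases, had 144 FPKM in WT with fatty acids and 39.1 in WT untreated (2.12), and Btg2, an antiproliferative gene, 24.9 and 10.3 (1.46). Gadd45g was at 11.4 and 28.9 (-1.01) and Sesn2, a sestrin that holds back mTORC1, at 5.49 and 18.1 (-1.29). Over the 23 p53 targets and Gadd45 genes compared, 2 were higher and 2 lower, with a median of -0.01.

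Pdk4, the kinase that shuts pyruvate out of the citric acid cycle and a classical PPARα target (chromosome 6, 5483351 to 5496278), had 103 FPKM in WT with fatty acids and 19.2 in WT untreated, a difference of 2.62 or 6.52-fold in reads (6.35 to 6.69). Txnip, the thioredoxin-interacting protein that limits glucose uptake, had 411 and 90.9 FPKM (2.43). Angptl4, an inhibitor of lipoprotein lipase, had 120 and 55.7 (1.35). Of 51 PPARα targets and fatty acid oxidation genes compared, 4 were higher (7.84%, against 3.77% of all genes compared), these among them, and 0 lower. The list's median was 0.38, or -0.01 on the deposited TPM scale.

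Oxidation enzymes were within 2-fold. Cpt1a, which carries acyl groups into mitochondria, had 3.22 FPKM in WT with fatty acids and 4.26 in WT untreated (-0.05). The dehydrogenase Acadm had 103 and 90.6 (0.44), Ehhadh 49.96 and 46.7 (0.36), and Cpt2 12.1 and 7.03 (0.97). Cyp4a enzymes, which hydroxylate fatty acids at the omega carbon and are named in the study's title, were likewise within 2-fold for all 6 genes compared. Cyp4a10 had 253 FPKM with fatty acids and 228 untreated in WT (0.41, or 1.35-fold in reads, 1.33 to 1.36), and Cyp4a14 237 and 188 (0.60, or 1.54-fold in reads, 1.52 to 1.56). Cyp4a31, Cyp4a32, Cyp4a12a and Cyp4a12b lay between 0.30 and 0.68. Members of this family are alike in sequence, so how reads were shared among them is uncertain.

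Among lipid droplet genes, 1 of 17 was higher (5.88%, against 3.77% of all genes compared) and 0 lower. The higher gene was Hilpda, a droplet protein that inhibits the lipase ATGL, at 102 FPKM in WT with fatty acids and 37.4 in WT untreated (1.69). The list's median was 0.44, or 0.07 on the deposited TPM scale, where 1 was higher and 1 lower. Plin2, the main droplet coat protein of hepatocytes, had 1850.4 and 1358 FPKM, a difference of 0.71 or 1.66-fold in reads (1.65 to 1.66). Cidec, which fuses droplets, had 41.2 and 36.3 (0.44), and Plin3, another coat protein, 23.4 and 47.0 (-0.72). Of 21 uptake, binding and activation genes, 2 were higher (9.52%) and 0 lower. Their median was 0.49, or 0.10 on the deposited TPM scale, where 2 were higher and 1 lower. Fabp5 had 290.0 FPKM with fatty acids and 88.8 untreated in WT (1.96), and Fabp4, which adipocytes, macrophages and endothelial cells express, 20.4 and 7.58 (1.58). The liver form Fabp1 had 1217 and 732 (0.995), just under the limit, and the transporter Cd36 9.04 and 5.95 (0.79).

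Synthesis genes for fatty acids and triglycerides centred on 0, with 1 of 29 higher, 0 lower and a median of 0.02. Lpin2, a phosphatidate phosphatase of triglyceride synthesis, had 88.3 FPKM in WT with fatty acids and 40.2 in WT untreated (1.38). Fatty acid synthase Fasn had 11.7 and 16.8 (-0.23), the desaturases Scd1 79.6 and 72.3 (0.40) and Fads2 23.99 and 48.8 (-0.73), and Srebf1 6.98 and 11.6 (-0.40).

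Sterol synthesis stood lower. Of 25 cholesterol synthesis genes and SREBP2 targets compared, 3 were lower and 0 higher, and 20 had a negative difference, with a median of -0.55. On the deposited TPM scale 12 were lower. Fdps, which makes farnesyl pyrophosphate, had 36.7 FPKM in WT with fatty acids and 106 in WT untreated (-1.24, or 2.31-fold lower in reads, 2.23 to 2.38). Lss, lanosterol synthase, had 1.72 and 5.91 (-1.08). Insig1 was at 67.0 and 138 (-0.77) and Sqle at 12.1 and 26.3 (-0.80), both within 2-fold of the median gene. In KO, Fdps was at 259 FPKM with fatty acids and 177 without, and the list's median was -0.08.

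Serine synthesis and other ATF4 targets were also low. ATF4 is the transcription factor of the amino acid and integrated stress response. Phgdh, the first enzyme of serine synthesis (chromosome 3, 98313171 to 98339969), had 3.01 FPKM in WT with fatty acids and 13.7 in WT untreated, a difference of -1.61 or 3.72-fold lower in reads (3.40 to 4.08), with 21.7 and 17.1 in KO with and without fatty acids. Psat1, the next enzyme, had 32.9 and 96.8 FPKM in WT (-1.27), Psph, the last, 7.35 and 18.1 (-0.93), and the asparagine synthetase Asns 32.8 and 72.4 (-0.86). Over 31 genes of this list compared, 4 were lower and 2 higher, with a median of -0.51, and 24 were negative. On the deposited TPM scale 13 were lower and 1 higher. The higher members were Atf3 and Cebpb (53.98 and 32.0, 1.00), and Ddit3, also called CHOP, was within 2-fold at 42.8 and 27.9 (0.86). The cytosolic aminoacyl-tRNA synthetase genes, a group taken up after values were seen, had 17 of 20 negative differences, with a median of -0.40, and the valine enzyme gene Vars was called lower (9.19 and 25.5, -1.12).

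Heat shock genes had a median of -0.49 over 21 compared, with 2 lower and 0 higher, and 6 lower on the deposited TPM scale. Hspa1b, an inducible HSP70, had 8.90 FPKM in WT with fatty acids and 25.3 in WT untreated (-1.15). Hspa4l was the other by FPKM (4.80 and 17.2, -1.39), but in read counts its difference was -0.65, under the limit. Chaperones of the mitochondrial matrix were lower within 2-fold, Hspd1 at 161 and 289 (-0.58) and Hspe1 at 119 and 218 (-0.61). Of the 27 endoplasmic reticulum chaperones and unfolded protein response genes, 1 was higher, the stress sensor Ern1 (56.6 and 32.8, 1.03), and 0 were lower.

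Other low genes had diverse roles. Cyp26a1, the enzyme that degrades retinoic acid (chromosome 19, 37697738 to 37701536), had the largest negative difference by the naming rule, with 1.08 FPKM in WT with fatty acids and 6.62 in WT untreated (-1.61, or 5.04-fold lower in reads, 4.33 to 5.88). It had 11.8 FPKM in KO with fatty acids and 10.0 without. The metallothionein Mt2, a zinc-binding protein induced by zinc, was at 8.65 and 29.2 in WT (-1.39) and the zinc exporter Slc30a1 at 5.03 and 15.0 (-1.14), while the zinc importer Slc39a10 was at 12.8 and 4.71 (1.54). The bile-acid-linked receptor Fgfr4 had 1.84 and 8.26 FPKM (-1.44), the muscle-type tropomyosin Tpm2 4.69 and 19.3 (-1.57), the tight junction gene Cldn4 5.79 and 20.1 (-1.38), and Sco2, a copper chaperone of cytochrome oxidase, 2.76 and 11.9 (-1.51). Others among the 20 lowest were Hhipl1, Shroom1, Mfge8, Mical2, the ethanolamine kinase Etnk1, Cep170b and Cachd1, with differences of -1.43 to -1.23. With a pseudocount of 5 in place of 1, 13 of the 20 lowest named genes came under 2-fold, Cyp26a1 at -0.72 among them, since their levels are low.

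Histone H4 genes stood apart from other histone genes, a comparison chosen after values were seen. Of 10 histone H4 genes compared, 7 were lower and 0 higher, with a median of -1.07, while of 31 genes for histones H1, H2A, H2B and H3, 0 were lower and H3c10 alone was higher, with a median of -0.06. On the deposited TPM scale the counts of lower genes were 7 of 10 and 4 of 31. H4f16 had 2.65 FPKM in WT with fatty acids and 11.2 in WT untreated (-1.47), and H4c2 2.74 and 10.2 (-1.32). The coding sequences of these copies are nearly alike, so the division of reads among them is uncertain and they are not separate observations.

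RNA from the mitochondrial genome stood higher as a block. All 13 mitochondrially encoded protein genes were compared, 9 were higher and 0 lower, and the median was 1.34. On the deposited TPM scale 5 were higher. The cytochrome oxidase gene COX1 had 8694 FPKM in WT with fatty acids and 3987 in WT untreated (1.39), and ND1 of complex I 420.3 and 164 (1.62). The ribosomal RNAs mt-Rnr1 (1672 and 489, 2.03) and mt-Rnr2 (10333 and 4745, 1.39) were higher too. By contrast 0 of 46 nuclear oxidative phosphorylation genes were called, with a median of 0.12, and 0 of 76 cytosolic ribosomal protein genes, with a median of -0.04. The reads on mitochondrial protein genes made up 2.02% of the library in WT with fatty acids and 0.903% in WT untreated, against 1.43% and 1.21% in KO with and without fatty acids. Gene by gene, though, 3 of the 13 were lower and 0 higher in KO, with a median of -0.59, and COX1 had 1062989 reads in KO with fatty acids and 742383 in KO untreated. In bulk RNA, more mitochondrial RNA per cell and a different mix of cells or RNA fractions cannot be told apart.

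Noncoding RNA made up a large part of the higher calls. Of 332 long noncoding RNA genes compared, 58 were higher (17.5%) and 4 lower, against 254 higher (2.56%) and 63 lower among 9916 protein-coding genes. Small nucleolar RNA genes had 26 of 189 higher and genes annotated as small nuclear RNA 11 of 65. The 11 include 5 nearly identical copies of the U3 RNA gene. Malat1, an abundant nuclear RNA, had 978 FPKM in WT with fatty acids and 537 in WT untreated (1.13). By symbol or annotated type, 171 of the 425 higher genes and 16 of the 78 lower ones were predicted genes, pseudogenes or small RNAs. Some of these predicted genes are annotated as protein-coding. The share of such genes among all genes compared was not taken, so whether these counts lie above or below it is not known.

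Macrophage markers were higher together. Of 17 Kupffer cell and macrophage markers compared out of 18, 14 were higher and 0 lower, with a median of 1.19. On the deposited TPM scale 8 were higher. Marco, a scavenger receptor of Kupffer cells, had 25.3 FPKM in WT with fatty acids and 4.83 in WT untreated (2.44), Adgre1, which codes for F4/80, 12.4 and 4.43 (1.56), and Lyz2, lysozyme, 88.1 and 38.3 (1.44). The complement gene C1qa was at 13.7 and 5.73 (1.39) and the Kupffer cell lectin Clec4f at 1.81 and 0.677 (1.01). Clec4f reached the inclusion limit in the treated WT library alone. Markers in this and the other cell type lists could enter the counts in this way, while the sums take in all members. The summed FPKM of the list was 358 in WT with fatty acids and 173 in WT untreated, against 332 and 280 in KO with and without fatty acids, and 0 of its genes lacked reads in both WT libraries.

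Few markers of other non-parenchymal cells were compared, and those that were went the same way at lower levels. Of 12 sinusoidal endothelial markers, 5 were compared and 3 were higher, with a sum of 21.4 FPKM in WT with fatty acids and 9.88 in WT untreated, and 22.3 and 29.4 in KO with and without fatty acids. Haemoglobin and other red cell genes had 3 of 5 higher, or 0 on the deposited FPKM scale, and a sum of 121 and 70.7 FPKM in WT, against 75.2 and 62.0 in KO. None of 14 stellate cell and fibroblast markers reached the inclusion limit, with a sum of 1.18 FPKM in WT with fatty acids and 0.882 in WT untreated, and 5 of them, Lrat and Des among them, had 0 reads in both. Of 8 cholangiocyte markers, 2 were compared and 1 was higher. Their list summed to 17.0 FPKM in WT with fatty acids and 7.33 in WT untreated, and 22.9 and 24.5 in KO with and without fatty acids. Of 16 lymphocyte and neutrophil markers, 2 were compared, S100a8 (4.30 and 1.86, 1.15) and S100a9 (3.52 and 2.22, 0.75), and Ly6g was listed at 0 in all 4 libraries. Hepatocyte markers had 0 of 10 higher and 0 lower, with a median of 0.59 and Alb at 3475 and 2460 FPKM (0.76), and they were abundant in all 4 libraries, as the labelled cell type would have them.

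**Figure D3:**
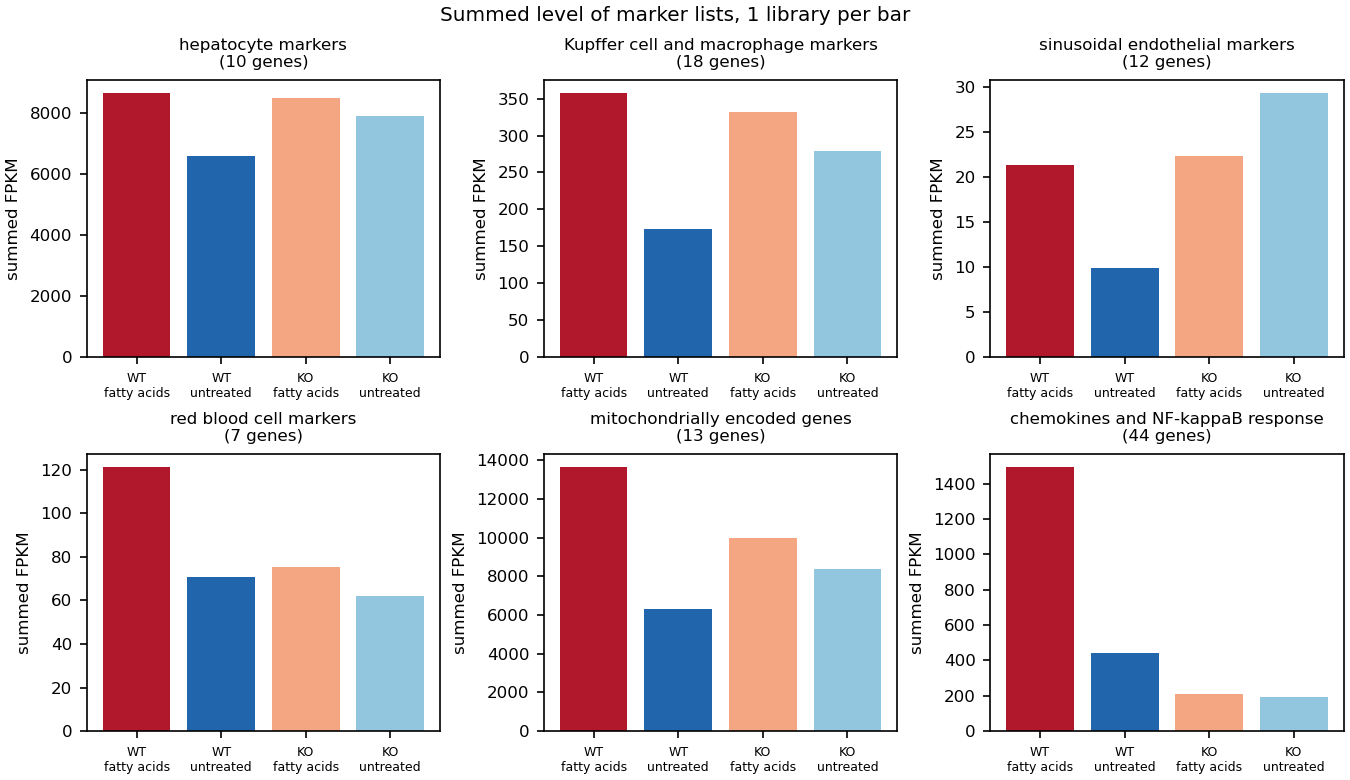
Summed FPKM (y axes, each from 0) of 6 gene lists in the 4 libraries, 1 bar per library. The macrophage sum is 358 and 173 in WT with and without fatty acids and 332 and 280 in KO, while the chemokine sum is 1493 and 444 in WT and 211 and 195 in KO.

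The chemokine list summed to 1493 FPKM in WT with fatty acids and 444 in WT untreated, 3.36-fold, beside 2.07-fold for the macrophage list. In KO with fatty acids the macrophage sum was 332, close to the 358 of WT with fatty acids, while the chemokine sum was 211. In bulk RNA, a larger share of a cell type and more RNA per cell cannot be told apart, and the part of macrophages in the chemokine difference was not tested.

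Plasma proteins made by hepatocytes were modestly higher relative to the median gene. Of 31 acute phase genes compared, 3 were higher (9.68%, against 3.77% of all genes compared) and 0 lower, with a median of 0.62 and 29 positive. On the deposited FPKM 1 was higher. Hamp, the iron hormone hepcidin, had 87.1 FPKM in WT with fatty acids and 25.2 in WT untreated (2.01), the fibrinogen chain Fgg 859 and 455 (1.18), and the siderophore-binding Lcn2 346 and 186 (1.15). Serum amyloid Saa1 was within 2-fold at 1049 and 797 (0.66). All 30 coagulation and complement genes were positive relative to the median gene, with a median of 0.42. Past 2-fold were 3 of them (10%, against 3.77% of all genes compared), C9, Serpind1 and C8a. None of the 30 was past 2-fold on the deposited FPKM. On the deposited TPM scale 18 of the 30 were positive, with a median of 0.03. Ahsg, fetuin-A, was the higher gene among 24 secreted plasma proteins, at 731 and 325 (1.43). Apoe was called by FPKM (3237 and 1524, 1.35), but its read counts, 428293 and 418352, gave 0.25.

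A few further genes of liver metabolism and matrix were called. The gluconeogenic enzymes G6pc had 8.25 FPKM in WT with fatty acids and 2.28 in WT untreated (1.76), and Pck1 8.89 and 3.58 (1.37). They were the called genes among 17 of gluconeogenesis and insulin response, whose median was 0.06. Of 23 TGF-β, YAP and matrix genes compared, 6 were higher, or 2 on the deposited TPM scale, and 0 lower: among them, beside Id3, were Spp1, osteopontin (13.2 and 4.09, 1.75), Ccn2 (19.9 and 9.56, 1.25), Sparc and Tgfb2. Haem oxygenase Hmox1 had 639 and 347 (1.14), and Glul, glutamine synthetase, 89.3 and 45.5 (1.22). The clock genes Per1 (6.06 and 2.44, 1.30) and Arntl (1.04 and 3.91, -1.01) differed in opposite directions. Relative to the median gene, no gene was called among 44 drug metabolizing enzymes, 18 bile acid genes, 31 proteasome genes or 17 cell cycle genes.

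**Figure D4:**
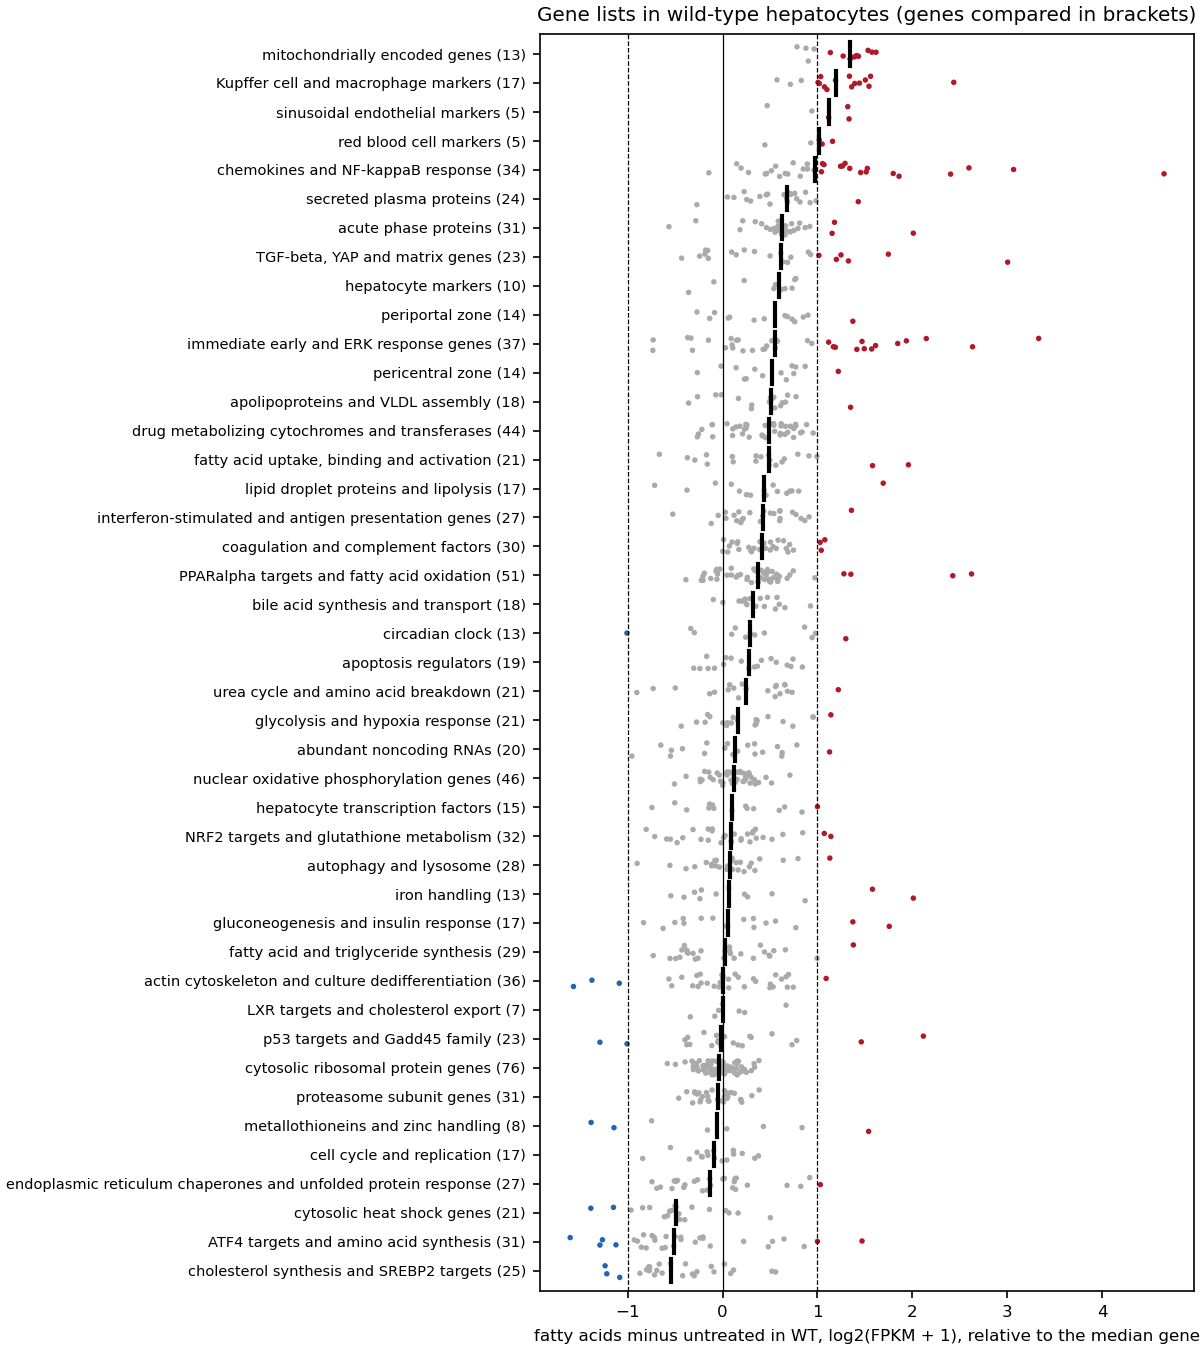
Differences of list members in WT with fatty acids minus untreated (x axis, log2, relative to the median gene), 1 row per list with at least 5 genes compared, ordered by the list's median (black bar). Red points are 2-fold higher and blue points 2-fold lower; medians run from 1.34 for mitochondrially encoded genes to -0.55 for cholesterol synthesis.

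The KO pair, which shares no library with the WT pair, gave the same genes measured with and without fatty acids in cells lacking Dusp6. There 8 of the 11287 genes were higher (0.0709%) and 555 lower (4.92%). Of the 425 genes higher in WT, 144 had the same sign in KO (33.9%), against 38.6% positive among all genes compared, 25 were 2-fold lower in KO, and 1 was 2-fold higher in both, 0.235% of the WT list and 12.5% of the KO list. That gene was Dpm1, the mannosyltransferase that makes dolichol phosphate mannose, at 11.98 FPKM in WT with fatty acids and 2.53 in WT untreated (2.14), and 13.9 and 4.61 in KO (1.25). The median KO difference of the 425 genes was -0.16. The 5 highest genes of the WT pair had KO differences of -0.36 for Il23a, -0.06 for Rnd1, -0.28 for Cxcl2, 0.13 for Id3 and 0.29 for Tcim. For Il23a, which had 30 reads in KO with fatty acids and 50 in KO untreated, the difference in read counts was -1.06. Further down the 20 highest, Pdk4 (-1.20) and Zfp36 (-1.17) were 2-fold lower in KO.

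Of the 78 genes lower in WT, 52 had the same sign in KO (66.7%). Most of all genes compared were negative in KO too, with 38.6% positive. In both pairs, 9 genes were 2-fold lower, 11.5% of the WT list and 1.62% of the KO list, against 4.92% of all genes compared 2-fold lower in KO. Beside 2 noncoding RNA genes, the 9 were the actin-binding genes Palld, Actn4 and Mical2, the endocytic kinase gene Aak1, the nucleotide sugar transporter gene Slc35d1, the splicing regulator Khsrp and the neurotrophic factor Cntf. Palld had 9.95 FPKM in WT with fatty acids and 37.4 in WT untreated (-1.55), and 8.28 and 35.2 in KO (-2.13). Actn4 had 20.1 and 52.9 in WT (-1.09), and 22.8 and 74.98 in KO (-1.84). Differences in KO ran with transcript length over 9856 protein-coding genes, with a Pearson r of -0.50, against -0.18 in WT, a description across genes, which are not independent. Its part in the shared lower genes was not tested.

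**Figure D5:**
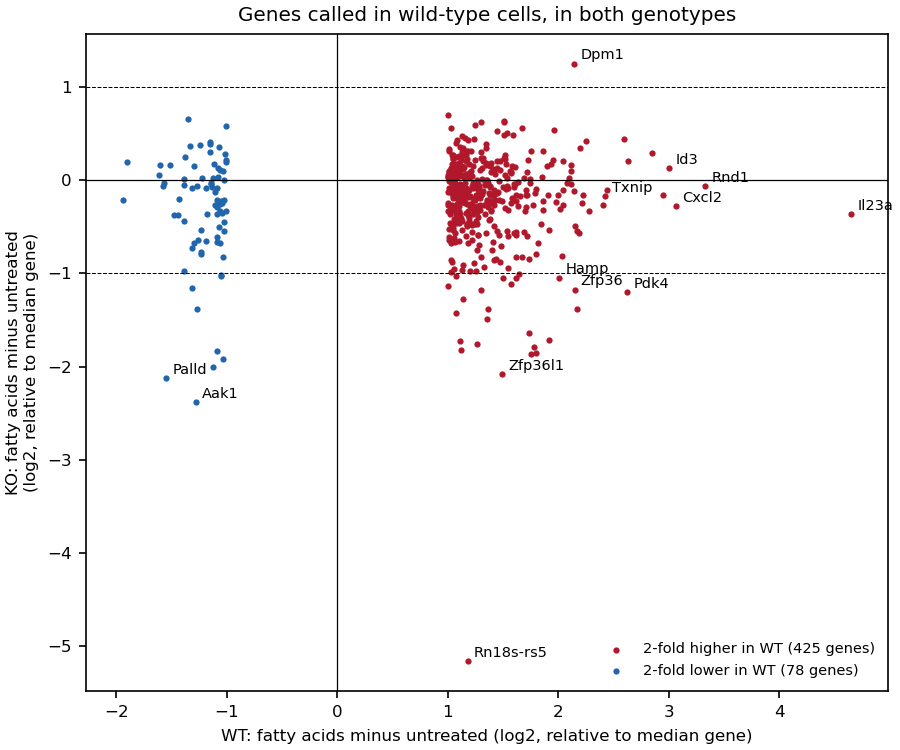
Difference with fatty acids in KO (y axis) against that in WT (x axis), both log2 relative to the median gene of the pair, for the 425 genes higher (red) and 78 lower (blue) in WT. Dashed lines mark 2-fold in KO; Dpm1 alone lies above the upper line, and 25 red and 9 blue points lie below the lower one.

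A fit over all 4 libraries with terms for genotype and fatty acids leaves 1 residual degree of freedom and counts any difference between the genotypes' responses as noise. With edgeR's quasi-likelihood test and Benjamini-Hochberg adjustment over 11287 genes, 1 gene was higher (0.00886%) and 2 were lower (0.0177%) with fatty acids at an adjusted p under 0.05, and 736 had an unadjusted p under 0.05. All 3 had an adjusted p of 0.00239. Aak1 had 500 reads in WT with fatty acids and 5609 in WT untreated, and 0.347 and 5.27 FPKM in KO. The others were predicted genes that were listed at 0 in some libraries: Gm38495 had 2232 reads in WT with fatty acids and 0 in each other library, and Gm45935 had 0 reads in WT with fatty acids and 537 in WT untreated. Of the genes called in WT, 1 higher and 1 lower gene passed this test.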

How the data were processed

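Total RNA of primary mouse hepatocytes was column-purified with DNase digestion and made into libraries with a stranded total RNA kit, per the labels' protocols. Tools in the submitters' processing notes are HISAT2 2.1.0, Bowtie2, Trimmomatic 0.38, StringTie 2.1.3b and FastQC 0.11.7, with no role or order, and the build is mm10. Which annotation, counting rule and strand setting were used is not given in the sources used, so a gene and its overlapping or antisense neighbour cannot be told apart. The authors deposited, per the file headers, raw read counts, FPKM and TPM per gene and library. FPKM and TPM were normalized by the authors to length and library. The deposited counts sum to 85423156 to 97364292 reads.

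From these, log2(FPKM + 1) was compared within WT for genes that reached an FPKM of 1 in either WT library, and the median difference of 5903 reference genes was subtracted. The pseudocount of 1 understates the differences of low genes. Folds in reads carry exact binomial intervals at 95%. Reads are not independent molecules, so the intervals cover counting error only. The gene comparison across 4 libraries used edgeR 4.0.16, with limma 3.58.1 and DESeq2 1.42.0 as alternatives, in R 4.3.3, and Python 3.11.15. Steps were tested on simulated data.

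The text names Dusp6, the Cyp4a genes, the 20 highest and 20 lowest genes that reached an FPKM of 5 in the library where they were higher, ranked by the smaller of the differences in FPKM and in read counts and without small RNAs, pseudogenes and predicted genes, and up to 6 members of each of 46 gene lists with the largest differences. Further members of known role, and the genes shared with KO, were chosen after their values were seen, as were the counts under other scales by list. Some genes that the rule names are not reported here. Members and lists were chosen with earlier results of these data known. Gene coordinates and upstream sequences are those of RefSeq on GRCm38.p6, matched for 8369 of the genes compared (74.1%). Printed stretches leave out the last 30 bases, where GENCODE M21 has exons.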

Additional observations from a re-analysis of the deposited data

Results flagged for a closer look

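The response of 7 protein-coding genes named here ran in opposite directions in the genotypes, each past 2-fold, with 1 library a group, so the difference between the genotypes was not tested. They are among 25 of the 425 genes higher in WT that were 2-fold lower in KO. Of all genes compared, 4.92% were 2-fold lower in KO, so such opposite calls are not particular to these genes. Pdk4 had a log2 difference with fatty acids of 2.62 in WT and -1.20 in KO, with 12.05 FPKM in KO with fatty acids and 25.8 in KO untreated. Zfp36 had 2.15 in WT and -1.17 in KO, with 3.75 and 8.59 FPKM in KO. Hamp had 2.01 in WT and -1.04 in KO, with 40.9 and 76.3 FPKM in KO. Per1 had 1.30 in WT and -1.18 in KO, with 1.64 and 4.35 FPKM in KO. ND2, a complex I gene of the mitochondrial genome, had 1.57 in WT and -1.11 in KO, with 23.8 and 46.9 FPKM in KO. Egr1 had 1.12 in WT and -1.82 in KO, with 2.26 and 9.27 FPKM in KO. Zfp36l1, an mRNA decay factor related to Zfp36, had 1.49 in WT, from 44.6 and 18.4 FPKM with and without fatty acids, and -2.08 in KO, with 5.95 and 25.2 FPKM. In all 7, KO untreated was higher than WT untreated. The same values entered the choice of these genes, so this is no separate result.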

How the results depend on the processing

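Against 425 genes higher and 78 lower in WT, of which 1 and 9 were shared with KO, a pseudocount of 0.1 gave 718 and 274 (18 and 40 shared), and a pseudocount of 5 gave 126 and 12 (0 and 2). A 1.5-fold rule gave 1361 and 607 (17 and 108). The deposited FPKM, not centred, gave 212 and 267 (16 lower shared), and the deposited TPM 206 and 636 (3 and 55). CPM with TMM gave 203 lower genes (19 shared), a limit of FPKM 5 gave 246 higher genes, and leaving out predicted genes and small RNAs 254. Counts not given here, those without a filter, with quantile normalization and with reference genes of the WT pair alone among them, stayed within 1.5 times. No named gene past 2-fold changed direction under these settings, while some list members within 2-fold changed sign. Of 270 named genes, 43 fell under 2-fold with a pseudocount of 5 and 29 on the deposited TPM. Of 43 list medians, 12 changed sign on the deposited FPKM and 16 on the deposited TPM. On TPM these included PPARα targets and oxidation genes (0.38 to -0.01) and bile acid genes (0.32 to -0.07). Fewer genes are tested under the stricter limit and without predicted genes; the cause of the other changes was not tested. The fit over 4 libraries called 3 genes, against 98 with limma on log2(FPKM + 1), 21 with DESeq2, 138 with library totals as the scale and 2 with edgeR's own filter. No paired analysis was possible because each group has 1 library. No replicate could be left out for the same reason. Depth limits genes of low FPKM, whose folds in reads have the widest intervals.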

Other observations

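The 5 U3 small nucleolar RNA genes, Rnu3a and Rnu3b1 to Rnu3b4, had log2 differences with fatty acids of 1.73 to 1.91 in WT, and their median was 1.78 in WT and -1.79 in KO. These copies are nearly identical, so they count as 1 observation. Among the 425 genes higher in WT, the lowest KO difference was that of Rn18s-rs5, a pseudogene related to ribosomal RNA, with 54.6 FPKM in WT with fatty acids and 28.4 in WT untreated, and 16.4 FPKM in KO with fatty acids against 555 in KO untreated. The cause was not tested.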
